A study of Mus musculus with 12 samples.

Results

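The regions described here are sites on mouse chromatin where the Mediator subunit MED1 was already present and where a second subunit, MED24, appeared after 2 h of RAF activation. They were chosen from 8 deposited peak lists. Peaks of the 8 lists were merged wherever they overlapped by 1 bp or more, and a region was kept if it was called in both 0 h MED1 libraries, in both 2 h MED24 libraries and in neither 0 h MED24 library. Of 78166 merged regions, 451 met this rule. MED24 at either time and MED1 at 0 h therefore chose the regions, and their values in those 6 libraries are given as a description, with no test. Calls in the 2 MED1 libraries at 2 h, the position in the genome and the promoter sequence were not used by the rule. The 2 h MED1 peaks did take part in the merging and so in the borders of the regions.

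All cells were E14tg2a mouse embryonic stem cells of 129SV origin that stably carry a cRAF-ErT2 cassette, a RAF kinase that 4-hydroxytamoxifen (4OHT) switches on. Every group had been kept in serum and LIF with 2 µM Chir99021, a GSK3 inhibitor, and then for 24 h in serum, LIF and 250 nM PD173074, an inhibitor of the FGF receptor. The 0 h groups were untreated and the 2 h groups had received 250 nM 4OHT. An antibody to MED1, or one to the FLAG tag for MED24, was used on chromatin of clone a and of clone b, which gives 4 groups of 2 libraries. The clones are the replicates, so spreads and p-values cover the variation between these 2 clones alone. No vehicle-treated library and none without the cassette was analysed, so 4OHT, time and ERK activity cannot be told apart. The lists held 37483 to 48931 peaks and give no read numbers, so the depth is unknown.

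Mediator is a large complex that connects factors bound at enhancers and promoters with RNA polymerase II. It is built of a head, a middle, a tail and a separable kinase module. MED1 belongs to the middle module and is the subunit to which nuclear receptors bind, while MED24 belongs to the tail, the part that many activators contact. In embryonic stem cells Mediator is abundant at the enhancers of the pluripotency genes and at active promoters. ERK, the last kinase of the RAF cascade, moves these cells away from naive pluripotency.

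The sequences of 7 promoters that the regions cover are printed here because 47.6% of the regions with a placed gene start lay near one. Each is the stretch of 250 bases before the start, 5′ to 3′ on the gene's strand, from RefSeq's promoter table for GRCm38.p6, the assembly that mm10 stands for. Capitals mark the GC box GGGCGG and the ETS core CCGGAA on either strand; the 2 can overlap and then run on as 1 stretch of capitals. The first 4 are the covered promoters with the highest MED24 percentile at 2 h. They are Slc25a45 at chr19:5877572-5877821 on the plus strand, Ppm1j at chr3:104780806-104781055 on the plus strand, Gzmm at chr10:79688770-79689019 on the plus strand and Reln at chr5:22344706-22344955 on the minus strand. The other 3 belong to genes of the lists used below, namely Dnmt3b at chr2:153649199-153649448 on the plus strand, Elk3 at chr10:93311160-93311409 on the minus strand and Fgfr4 at chr13:55152568-55152817 on the plus strand.
Slc25a45: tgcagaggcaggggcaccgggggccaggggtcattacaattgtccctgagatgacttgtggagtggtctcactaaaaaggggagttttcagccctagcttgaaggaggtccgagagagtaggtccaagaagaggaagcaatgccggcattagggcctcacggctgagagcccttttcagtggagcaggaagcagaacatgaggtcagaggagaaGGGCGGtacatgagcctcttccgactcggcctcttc
Ppm1j: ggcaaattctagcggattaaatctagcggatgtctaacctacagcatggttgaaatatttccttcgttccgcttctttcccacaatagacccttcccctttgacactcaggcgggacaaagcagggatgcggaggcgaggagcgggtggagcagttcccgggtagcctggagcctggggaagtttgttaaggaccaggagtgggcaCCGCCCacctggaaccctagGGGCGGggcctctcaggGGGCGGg
Gzmm: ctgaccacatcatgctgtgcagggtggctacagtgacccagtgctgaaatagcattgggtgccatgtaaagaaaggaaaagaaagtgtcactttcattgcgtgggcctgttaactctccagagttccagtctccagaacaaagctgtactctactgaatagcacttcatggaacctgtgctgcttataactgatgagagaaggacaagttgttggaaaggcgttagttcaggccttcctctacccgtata
Reln: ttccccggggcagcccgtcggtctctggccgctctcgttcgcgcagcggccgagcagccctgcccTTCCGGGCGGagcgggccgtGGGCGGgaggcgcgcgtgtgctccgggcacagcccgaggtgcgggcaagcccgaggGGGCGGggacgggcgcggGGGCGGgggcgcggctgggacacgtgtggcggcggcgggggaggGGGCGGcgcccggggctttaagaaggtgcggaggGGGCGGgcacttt
Dnmt3b: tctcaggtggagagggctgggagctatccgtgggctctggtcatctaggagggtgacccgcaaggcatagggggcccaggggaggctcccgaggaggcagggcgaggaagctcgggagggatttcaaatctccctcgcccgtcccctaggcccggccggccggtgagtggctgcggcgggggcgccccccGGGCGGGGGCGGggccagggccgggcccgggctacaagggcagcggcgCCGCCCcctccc
Elk3: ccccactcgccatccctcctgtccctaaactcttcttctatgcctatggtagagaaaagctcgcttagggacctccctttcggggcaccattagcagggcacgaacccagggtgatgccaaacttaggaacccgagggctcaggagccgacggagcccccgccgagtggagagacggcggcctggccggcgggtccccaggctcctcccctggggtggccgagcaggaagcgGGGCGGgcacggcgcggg
Fgfr4: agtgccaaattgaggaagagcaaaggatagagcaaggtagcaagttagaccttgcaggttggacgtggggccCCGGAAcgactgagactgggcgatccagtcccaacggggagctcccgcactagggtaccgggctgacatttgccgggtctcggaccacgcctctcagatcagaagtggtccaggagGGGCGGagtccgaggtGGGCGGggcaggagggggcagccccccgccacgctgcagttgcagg
The Reln promoter, of a secreted guidance protein of the brain, is 80% G and C and holds 6 GC boxes and 1 ETS core. At the other end the promoter of Gzmm, a granule protease of killer lymphocytes, is 46.8% G and C and holds neither motif.

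The starting point was a small pool of sites with MED1 and no MED24. MED1 was called in both 0 h libraries at 27839 regions, and MED24 was absent from both 0 h lists at 2228 of them. MED24 had appeared in both clones at 451 of the 2228 after 2 h, which is 20.2%, in 1 clone at 412 and in neither at 1365. Over all merged regions, 13.1% were called for MED24 in both 2 h libraries and in neither 0 h library. Over the regions with MED1 at 0 h the share was 1.62%. These shares follow from the rule and are given as background. The 451 are 4.41% of the 10229 regions that gained MED24, whereas 7065 of those gained MED1 at the same time.

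MED24 at the 451 regions was modest after 2 h. The strength of a peak is given as its percentile in its own library's list, where 100 is the strongest peak. The median MED24 percentile was 29.5 in clone a and 37.0 in clone b, with ranges of 0.110 to 97.1 and 0.190 to 98.2. MED24 scores, which the authors deposited and which are read here as 10 times −log10 q, had medians of 84 and 96, against 161 and 201 at the regions that gained both subunits. MED1 had likewise been weak at 0 h, with medians of 29.5 and 31.9, against 73.9 and 72.9 at the 18484 regions with MED1 at 0 h and MED24 in all 4 libraries. The regions were 755 bp wide at the median, between the 414 bp of regions that never had a MED24 call and the 1052 bp of regions with MED24 throughout. A width spans all chained peaks, and the classes require calls in different numbers of lists. The part of this in the order of widths was not tested. A MED1 peak at 0 h and a MED24 peak at 2 h of the same clone overlapped directly in 430 of the 451 regions in clone a and 433 in clone b. They did so in both clones in 417, so few regions owe their place to chained peaks.

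Many regions missed the rule by a single call. The rule failed only for 1 MED24 call at 0 h in 1276 regions, whose score in that library ran from 20 to 244 with a median of 69. A further 785 regions lacked only 1 MED1 call at 0 h. The lowest score in any list was 20. Just inside stood a region in Zfp521, with MED24 scores of 21 and 66 at 2 h, and a region in Vwf, the gene of von Willebrand factor, with scores of 57 and 22. Just outside stood a region in Got1l1 and a region before Pigz, a gene of glycolipid anchor synthesis, each with a MED24 score of 20 in clone a at 0 h. These named regions were picked for their low scores and do not describe the border as a whole. Of the 1276 regions with 1 MED24 call at 0 h, 20.9% had a score under 50 in that library. Leaving out a library moved the count by more than 1.5 times in several cases. The count was 829 without MED1 0 h clone a, 858 without MED1 0 h clone b, 1236 without MED24 0 h clone a, 942 without MED24 0 h clone b and 722 without MED24 2 h clone a.

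MED1 stayed at these sites and ranked higher after 2 h. The rule used no calls of the 2 h MED1 libraries, although their peaks took part in the merging. These libraries called MED1 in both clones at 364 of the 451 regions, or 80.7% (95% exact binomial interval 76.8 to 84.3%, counting error only). Clone a alone called 35, clone b alone called 40, and neither called 12. Over all regions with MED1 in both 0 h libraries the share was 72.2%. It was 27.5% at the 1365 regions that never had a MED24 call, 54.9% at the 412 that gained MED24 in 1 clone, 92.1% with MED24 throughout, and 4.01% at the 2493 regions that lost MED24 from both clones. The share was thus larger where MED24 was gained than at regions with the same 0 h calls that never gained it. MED1 had been about as strong in both at 0 h, with medians of 31.1 and 28.8 in the latter. MED24 calls at 2 h split these classes, and MED1 at 2 h is a subunit of the same complex in the same clones. The part of that selection in the difference was not tested.

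The 364 regions called in all 4 MED1 libraries show the change of rank. Their mean MED1 percentile was 33.2 in clone a and 32.8 in clone b at 0 h, and 45.3 and 48.6 at 2 h. The 2 h values lay above the 0 h values with no overlap. The group means were 33.0 ± 0.32 at 0 h and 46.9 ± 2.31 at 2 h (SD, n = 2), a shift of 14.0 percentile points (12.1 in clone a, 15.8 in clone b). As the 0 h MED1 libraries chose the regions, this shift and the differences in shift that follow are a description, with no test. MED1 ranked higher at 2 h in both clones at 182 of the 364 regions, or 50%, against 24.4% of the 20086 regions called in all 4 MED1 libraries. It ranked lower in both clones at 54, or 14.8%, against 44.2%.

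The lists grew between 0 h and 2 h, so ranks were also taken among the 20086 regions common to the 4 MED1 lists. On that scale the mean percentile was 15.6 and 16.2 at 0 h and 31.4 and 30.9 at 2 h, a shift of 15.3. Regions that never had a MED24 call moved by -7.48 points in the whole lists and by -3.58 on the common scale. Those with MED24 throughout moved by -3.01 and -0.22, and those that gained MED24 in 1 clone by -1.42 and 1.27. The difference in shift was 21.4 points between the regions that gained MED24 and those that never had it, with 21.9 in clone a and 21.0 in clone b, and 18.8 on the common scale. Against regions with MED24 throughout it was 17.0, and 15.5 on the common scale. Each of these differences exceeded the spread between the clones. Selection on a 0 h call, on strength at 0 h and on MED24 or MED1 calls at 2 h can itself move a rank. The classes also started from different levels, with 33.0 here, 43.3 without MED24 and 70.3 with MED24 throughout. Those levels hold for regions called in all 4 MED1 libraries, which are 364 of 451 here but only 375 of 1365 without MED24. Over the full classes the 0 h means in clones a and b were 31.2 and 31.9 here. Without MED24 they were 32.7 and 30.8. The parts of the selection and of the starting level in the difference were not tested.

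**Figure D1:**
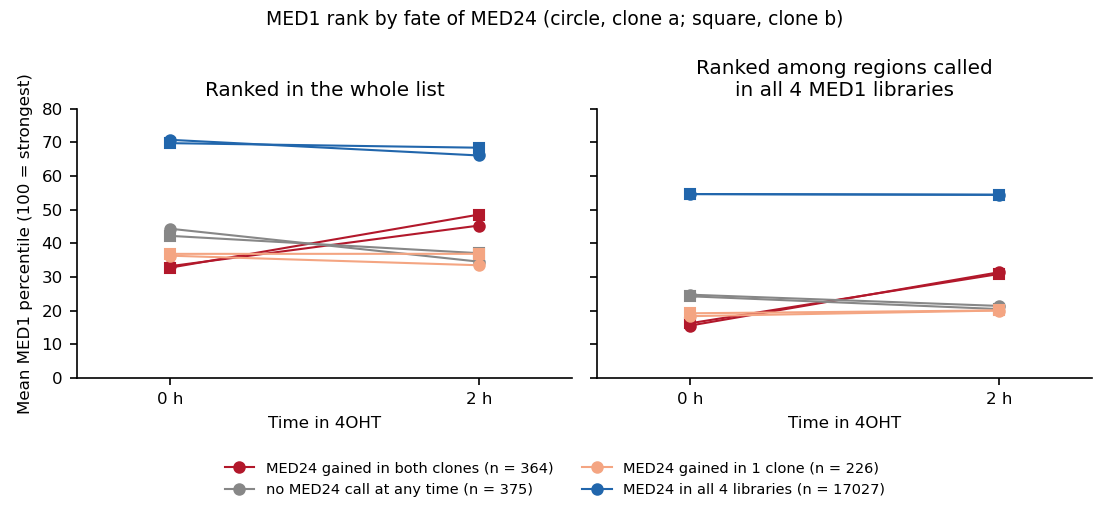
Mean MED1 percentile (y axis, 100 = strongest peak) at 0 h and 2 h of 4OHT (x axis) in clone a (circles) and clone b (squares), for regions called in all 4 MED1 libraries, split by what MED24 did; percentiles are taken in the whole list (left) or among the regions common to the 4 MED1 lists (right). The regions that gained MED24 in both clones went from 33.2 and 32.8 to 45.3 and 48.6 in the whole lists, while those with no MED24 call went from 44.3 and 42.2 to 34.5 and 37.1.

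Single regions ranged far around that mean. The region with the highest MED24 rank lies over the start of Slc25a45, a member of the mitochondrial carrier family, at chr19:5877563-5878395. Its MED1 percentile in clone a and clone b was 27.4 and 41.0 at 0 h and 98.0 and 98.5 at 2 h, and its MED24 percentile was 97.1 and 98.2 at 2 h. A region 5.04 kb from Tra2a, which encodes a splicing regulator, went from 25.4 and 43.3 to 98.5 and 98.7 for MED1 and reached 96.8 and 96.4 for MED24. In Lzts1, a leucine zipper tumour suppressor gene, MED1 went from 21.9 and 43.5 to 98.9 and 98.6, with MED24 at 96.5 and 95.8. These sites were weakly marked by MED1 before treatment and among the strongest of both subunits after it. The remaining 3 of the 6 with the highest MED24 rank lie in C77080, in Sema6d (a semaphorin) and in Pml, the organizer of PML nuclear bodies, with MED24 between 91.7 and 96.2 in the 2 clones.

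The largest upward shifts of MED1, ranked by the smaller of the shifts in the 2 clones, were at Pml, Ubtf, Nkx2-2 and Pank3. At Pml (chr9:58217187-58219020) MED1 went from 22.3 and 15.9 to 94.5 and 93.5. At Ubtf, a transcription factor of ribosomal RNA genes, it went from 9.02 and 6.34 to 79.9 and 78.9. The region in Nkx2-2, a homeobox gene of the neural tube and pancreas, went from 14.9 and 27.3 to 89.0 and 93.1. Near Pank3, a kinase of coenzyme A synthesis, the values were 2.28 and 27.3 at 0 h and 85.1 and 90.8 at 2 h. The 4 were chosen for their rise in both clones, so 2 h values above the 0 h values follow from the choice.

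A few regions had strong MED1 from the start. The region 2.14 kb from Trim7, a ubiquitin ligase gene, had MED1 percentiles of 94.8 and 94.3 at 0 h and 92.5 and 93.6 at 2 h, with MED24 at 6.98 and 49.0. Near Trim27, another ubiquitin ligase gene, MED1 was at 92.4 and 92.3 and then at 88.9 and 94.2, with MED24 at 9.39 and 17.1. Near Abt1, an activator of basal transcription, MED1 was at 90.8 and 93.8 and then at 88.3 and 91.9, with MED24 at 0.209 and 6.31. A region near 1810010H24Rik completes the 4 with the strongest MED1 at 0 h, and its MED24 percentiles were 23.9 and 39.7. MED24 was low in both clones near Trim27 and Abt1, and near the middle of the list in clone b at Trim7.

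MED1 ranked lower at 2 h at some regions where MED24 appeared. Ranked by the smaller of the downward shifts in the 2 clones, the lowest were near Hs3st3b1, a heparan sulfate sulfotransferase gene, at the start of Rbm46, which encodes an RNA-binding protein of germ cells, near Ms4a8a and at the start of Zfp385b. At Rbm46 MED1 went from 65.2 and 68.2 to 37.1 and 27.8, while MED24 was called at 24.8 and 26.6. At Zfp385b MED1 went from 58.3 and 61.3 to 23.6 and 40.3, with MED24 at 17.0 and 26.6. Near Hs3st3b1 the clones differed widely at 2 h, with MED1 at 0.0182 and 37.7 after 52.9 and 67.3. So the gain of a MED24 call did not always go with a higher MED1 rank.

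**Figure D2:**
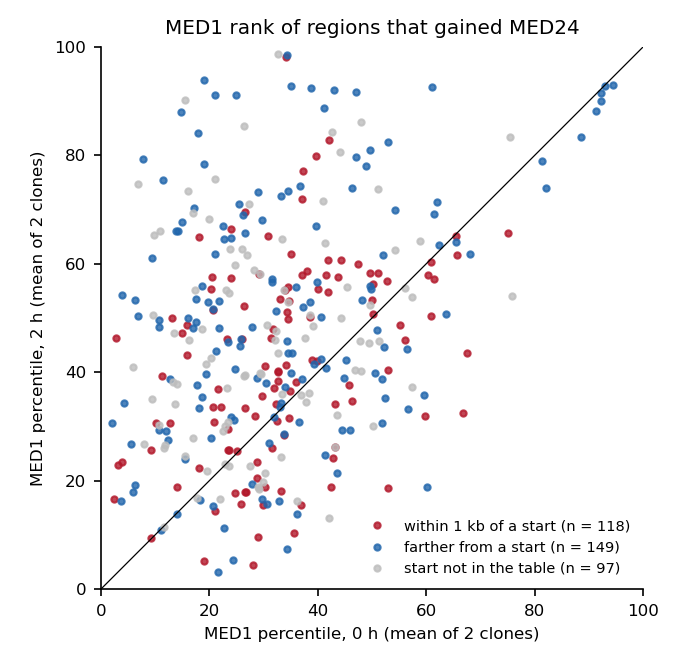
MED1 percentile at 2 h (y axis) against 0 h (x axis), each the mean of the 2 clones, for the 364 regions that gained MED24 and were called in all 4 MED1 libraries; colours show whether the region centre lay within 1 kb of a gene start, and the line marks equal ranks. MED1 ranked higher at 2 h in both clones at 182 of the regions and lower in both at 54.

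Gene starts made up a large part of these regions. Distances could be given for the 332 regions whose nearest protein-coding gene has an entry in the promoter table; the centre of 158 of them, or 47.6% (95% exact interval 42.1 to 53.1%), lay within 1 kb of a start. The share was 46.9% at regions with MED24 throughout, 37.1% over all regions with MED1 at 0 h, 28.3% where MED24 appeared in 1 clone and 5.88% where it never appeared. It was 3.37% at the regions that gained MED1 and MED24 together, and 6.18% at the 470 regions where MED1 came to a site that MED24 had held. By gene ends, which every gene has in the table, 50.3% lay within 1 kb of an end, against 45.8% with MED24 throughout, 37.4% of all regions with MED1 at 0 h, 15.5% of the regions without any MED24 call and 5.75% of those that gained both subunits. In all, 78.0% overlapped a gene span or lay within 1 kb of one, against 70.4% with MED24 throughout and 65.9% of all regions with MED1 at 0 h. The gene table used gives spans and no exons, so exon and intron cannot be told apart here.

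Seen from the starting pool, 316 regions with MED1 and without MED24 at 0 h lay near a start, and 158 of them, or 50%, gained MED24 in both clones. Of the 1409 farther away, 174, or 12.3%, did so. The pool near starts was a small remainder. It was 3.88% of the 8145 regions near a start with MED1 at 0 h, against 10.2% of 13816 farther away. Regions that missed the rule only by 1 MED24 call at 0 h had a like position. Of the 1026 with a placed start, 52.7% lay near it. The part of the call threshold in the contrast was not tested. With the rule applied to a single clone, 52.6% near starts and 17.8% farther away gained MED24 in clone a, and 66.2% and 26.4% in clone b. Both clones thus had the same order. The shares changed with the length of the lists. With peaks of score 50 or more, 55.0% near starts and 12.2% farther away gained MED24, and with score 100 or more 44.7% and 12.6%. Among the 30000 best peaks of each library the shares were 31.4% and 7.53%, and among the 10000 best 9.77% and 5%, where the contrast was smallest. In those shortest lists 84.3% of the regions that gained MED24 and 69.7% of those that never had it were near a start, while regions that gained both subunits stayed at 7.02%.

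**Figure D3:**
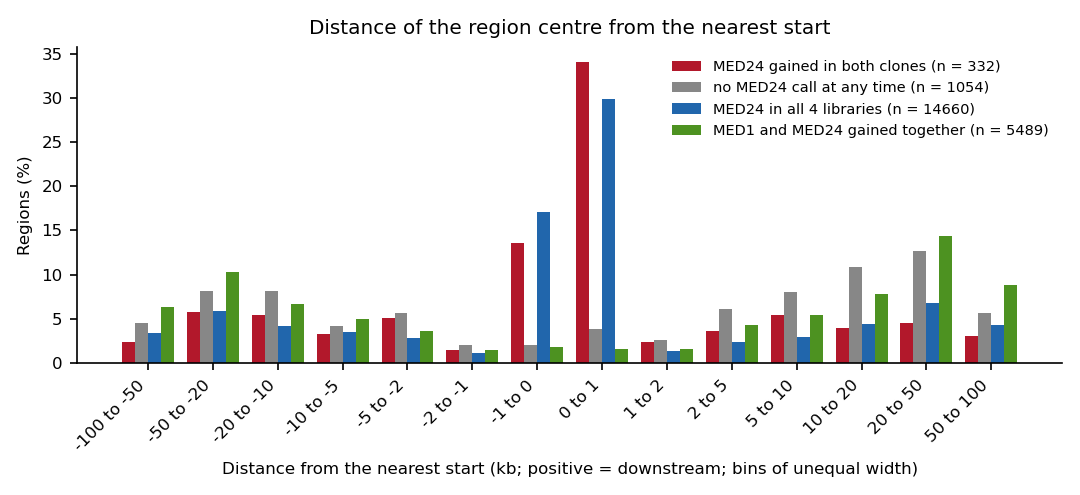
Percentage of regions (y axis) by distance of the region centre from the nearest gene start in kb (x axis, bins of unequal width, positive downstream), for 4 classes of region. Of the regions that gained MED24 where MED1 was present, 34.0% lie between 0 and 1 kb downstream and 13.6% within 1 kb upstream, a profile close to that of regions with MED24 throughout.

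**Figure D4:**
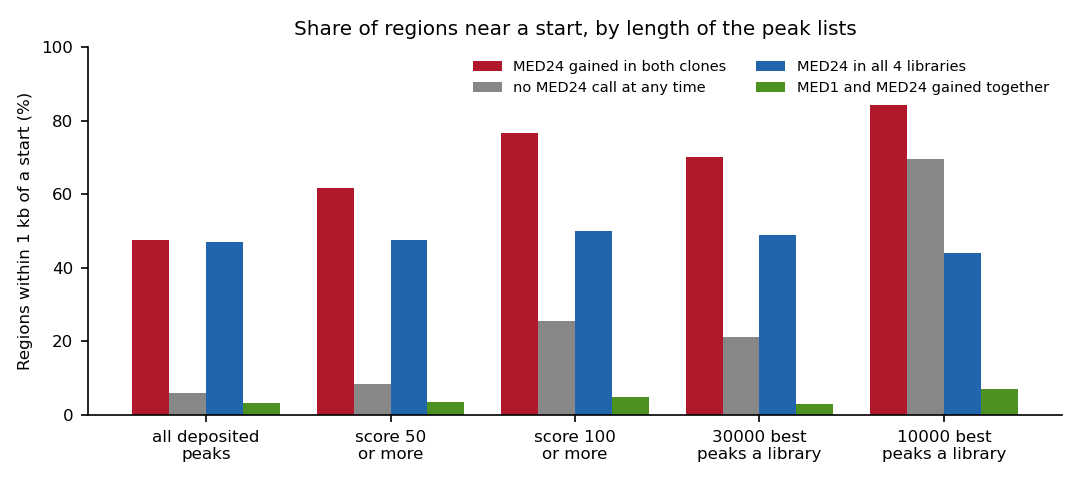
Percentage of regions within 1 kb of a gene start (y axis) for the same 4 classes, from the full deposited lists and from 4 shortened versions (x axis). The share among regions that gained MED24 goes from 47.6% to 84.3% and that among regions with no MED24 call from 5.88% to 69.7%, while regions that gained both subunits stay between 2.95% and 7.02%.

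Regions at starts and away from them were also set side by side for MED1. MED1 was called in both 2 h libraries at 118 of the 158 regions near a start, or 74.7% (95% exact interval 67.2 to 81.3%). Farther away it was so called at 149 of the 174, or 85.6% (79.5 to 90.5%). The intervals cover counting error over regions and not the variation between clones, and the difference was not tested. With MED24 throughout the shares were 97.8% near starts and 87.3% farther away, without any MED24 call 33.9% and 27.4%, and with MED24 in 1 clone 57.3% and 54.3%. Their mean MED1 percentiles at 0 h were alike, with 33.1 and 34.4 near starts and 33.8 and 34.3 away from them. After 2 h they were 39.6 and 43.9 near starts and 49.7 and 52.7 away. The shift was 8.04 near starts and 17.1 away, a difference of -9.09 with -9.40 in clone a and -8.79 in clone b, again a description with no test. The strongest MED1 peak of a region moved its summit by a median of 96 bp in clone a and 114 bp in clone b between 0 h and 2 h. The medians were 50 and 52 bp at regions with MED24 throughout, where MED1 was stronger at 0 h. They were 58 and 68.5 bp at regions never called for MED24, and 74 and 77.5 bp where MED24 was gained in 1 clone.

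The promoters under these regions were rich in CpG. The regions overlapped 170 promoter windows of 155 genes. Over the 250 bases before the start, G and C made up 66.0% on average, against 55.5% of the 21237 promoters in the table, and 74.7% of the windows had an observed to expected CpG ratio over 0.6, against 44.7% of all. Promoters under regions with MED24 throughout had 62.2% G and C and 80.5% over that ratio. Those under regions that gained both subunits had 57.8% and 39.4%, and the 46 under regions never called for MED24 had 61.5% and 63.0%. Motifs were searched on both strands and may overlap each other. The GC box GGGCGG was in 76.5% of the windows, against 42.6% of all promoters and 65.7% of those with MED24 throughout. The ETS core CCGGAA, which factors that ERK can phosphorylate recognise, was in 12.9%, against 15.0% of all promoters and 26.9% of those with MED24 throughout. The AP-1 site TGANTCA was in 3.53%, against 6.14% of all promoters, 3.37% of those with MED24 throughout and 28.2% of the 142 under regions that gained both subunits. The CCAAT box CCAAT was in 31.2% against 35.4% of all, the E-box CACGTG in 4.12% against 6.63%, and the TATA box TATAAA in 3.53% against 11.6% of all and 4.88% of those with MED24 throughout. In the 46 windows under regions never called for MED24, the GC box was in 69.6% and the ETS core in 10.9%. There the CCAAT box was in 37.0%, the E-box in 6.52%, the TATA box in 8.70% and the AP-1 site in none. The cyclic AMP response element TGACGTCA was in none of the 170, none of the 46 under regions never called for MED24 and none of the 142 under regions that gained both, against 1.93% of all promoters and 3.41% of those with MED24 throughout. These are shares of letters in windows of equal length, and no binding is measured by them.

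Some regions lay within 1 kb of the start of homeobox or Wnt genes. The homeobox genes En1, Lhx1, Hmx3, Hoxd13 and Barhl1, and the Wnt genes below, were chosen after their values were seen; no count over all homeobox genes was made, and they are examples only. At Hmx3 (chr7:131541798-131543413) MED1 was at 22.3 and 18.5 and then at 51.0 and 64.0, with MED24 at 58.2 and 53.8. At En1 MED1 was at 13.2 and 5.37 and then at 20.4 and 31.0, with MED24 at 52.7 and 55.5. At Wnt5b, a Wnt ligand gene, MED1 went from 17.4 and 35.8 to 64.7 and 74.2, with MED24 at 37.2 and 47.7. At Wnt3a MED24 was at 5.53 and 13.4. The gain was thus well inside the lists at Hmx3, En1 and Wnt5b and near their floor at Wnt3a. Lhx1, Hoxd13 and Barhl1 had no MED1 call in clone a at 2 h. The MED24 percentiles were 48.9 and 75.8 at Lhx1, 1.29 and 26.6 at Hoxd13, and 9.90 and 21.9 at Barhl1.

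The regions were scattered over the genome. A protein-coding gene lay within 100 kb of 440 of them, and these were assigned to 425 genes, 411 with a single region. That is 3.32% of the genes with a region called for MED1 at 0 h and 1.94% of all protein-coding genes. Only Gse1, which encodes a subunit of a corepressor complex, had 3, and its best region reached MED24 percentiles of 63.1 and 62.2. Of the genes with 2, leaving out symbols of Gm with digits or ending in Rik, those with the best MED24 rank were Sema6d, Iqschfp, Vwf, Rgs20, Mast3, Sox6 and B4galt6. The share of MED1 regions that were chosen ran by chromosome from 0.497% on X, with 3 of 604, to 2.94% on Y, with 1 of 34. Regions that gained both subunits lay within 12.5 kb of 13.7% of the chosen regions, against 13.1% of all regions with MED1 at 0 h, a share near the background.

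Of 19 gene lists with 284 distinct genes, 9 held a gene with such a region, 14 genes and 15 regions in all. That is 4.93% of the listed genes. Among all protein-coding genes it was 1.94%, and among those with a region called for MED1 at 0 h 3.32%. A share of genes can also rise with the number of MED1 regions that each gene has, which these shares do not allow for. The lists were chosen with earlier results of these data known. The difference is thus a description and is not read as an enrichment. No region was assigned to the naive pluripotency genes, with 107 MED1 regions at 0 h of which 9 lacked MED24, or to the core pluripotency genes, with 79 and 9. Over all regions the shares were 1.62% of those with MED1 at 0 h and 20.2% of those that also lacked MED24. Whether the count of 0 in these lists lies below those shares was not tested. MED1 was at the stem cell markers at 0 h, with 2 regions at Pou5f1, 8 at Sox2, 9 at Nanog, 14 at Esrrb, 7 at Klf4 and 10 at Zfp42. The other lists without one were TEAD and Hippo, primitive endoderm, BMP and Id, Wnt target, LIF STAT3, Mediator subunits, fibroblast and housekeeping.

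At ERK target genes the share of MED24 gains that fell on sites with MED1 was near the 4.41% over all regions that gained MED24. Among 16 genes of ERK feedback, which encode phosphatases and adaptors that damp the cascade, 43 regions gained MED24, and 2 of them had both MED1 calls at 0 h. One lies 83.6 kb from Phlda1 and had MED1 at 41.1 and 6.34 and then at 42.8 and 82.7, with MED24 at 61.8 and 84.3. The other lies 40.0 kb from Spry2, an inhibitor of receptor tyrosine kinase signalling, where MED1 went from 0.917 and 7.41 to 49.5 and 19.2 and MED24 reached 21.3 and 36.4. Among 22 immediate early genes, 32 regions gained MED24 and 2 of them had both, in Myc and near Fosb. The Myc region (chr15:61986558-61987262) had MED1 at 41.3 and 24.2 and then at 34.1 and 52.9, with MED24 at 39.0 and 37.8. At Fosb, a partner in AP-1, MED24 was at 26.9 and 6.31 and MED1 at 62.0 and 74.3 and then at 54.2 and 69.5. At Phlda1 and Spry2 both 2 h values of MED1 lay above both 0 h values, while at Myc and Fosb the times overlapped.

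The ETS list of 16 genes held 1 region, at the start of Elk3, an ETS factor that ERK phosphorylates; its promoter is printed above. Its MED1 percentile at 0 h was 0.225 in clone a and 65.9 in clone b, and 44.2 and 62.7 at 2 h, with MED24 at 42.3 and 45.4. The clones thus disagreed at 0 h. The list of 21 genes of FGF receptors and the RAS-ERK cascade held 1, at the start of Fgfr4, with MED1 at 22.3 and 34.6 and then at 29.9 and 33.8 and MED24 at 8.78 and 45.4. The formative epiblast list held 1, at the start of Dnmt3b, a DNA methyltransferase that rises as cells leave the naive state. MED1 there was at 63.5 and 37.0 and then at 49.0 and 52.5, with MED24 at 52.3 and 45.4. At each of these 3 promoters the 0 h and 2 h values of MED1 overlapped.

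Lineage lists held the rest. In the neural list Sox1, a transcription factor of the neural plate, had 2 regions and Hes5, a Notch target, had 1. In the trophectoderm list Tfap2c and Tfap2a, related AP-2 factors, had 1 region each. Mixl1, a homeobox gene of the primitive streak, had 1, with MED1 at 14.9 and 25.7 and then at 49.2 and 36.0 and MED24 at 42.3 and 31.2. From the list of estrogen receptor targets, included because the cassette carries a receptor domain that binds 4OHT, only Rara held a region, with MED24 at 18.6 and 29.5 and no MED1 call in clone a at 2 h. With so few regions a list, these counts are a description.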

How the data were processed

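Mediator ChIP-seq peaks were analysed in 8 libraries, MED1 and MED24 at 0 h and 2 h in clones a and b; the inputs are not analysed here. Per the submitters' processing notes, Bowtie2, MACS2 and bedtools were used with mm10; the sources used here give no versions or settings. Each library has its own deposited list. The MED1 lists hold a score, a fold enrichment (a ratio), −log10 p-values and −log10 q-values as the authors' peak caller gave them; the MED24 lists hold a score deposited by the authors, taken as 10 times −log10 q because the MED1 score is that, although no MED24 list says so. MED24 peak names carry FLAG and a folder name with EP300, and the labels were followed. All such values are the authors' and only ranked or filtered peaks within a list.

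Regions were merged at 1 bp of overlap on chromosomes 1 to 19, X and Y (Python 3.11.15, pandas 2.3.3, SciPy 1.17.1). A region's percentile is that of its strongest peak, by −log10 p for MED1 and by score for MED24. Shifts of mean MED1 percentile are described with no test, because the 0 h MED1 libraries chose the regions; the planned exact permutation test over libraries is not used as support. Position came from RefSeq GRCm38.p6, with 21883 protein-coding genes, of which 17491 had a start in the promoter table; 119 of the 451 regions had no such start. Intervals are exact binomial and cover counting error only. The rule was run on simulated data, where 100.0% of 400 simulated regions were recovered. Their calls were set in advance with none missed, so this checks the code alone. It does not measure how noise in real calls moves the count.

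The clone letters pair libraries of the same clone; deviations of clones from their group means correlated by -0.00478 in MED1 and -0.00848 in MED24. Named regions are the 6 with the best mean MED24 percentile, the 4 with the best MED1 at 0 h, the 4 that moved up and the 4 that moved down most in MED1, 2 on either side of the threshold, the 8 genes with the most regions, and up to 4 genes a list. The regions and the gene lists were chosen with earlier results of these data known. Alternatives were score minimums, shorter lists, other merging, a margin on MED24, ranking by other columns, single clones and left-out libraries. A listed gene is not reported here.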

Additional observations from a re-analysis of the deposited data

How the results depend on the processing

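The number of regions depended most on the calls. It was 129 with the 10000 best peaks a library and 2298.5 with the replicate block, where the rule is applied in each clone and averaged, so that no second clone has to match. Leaving out libraries gave 451 to 2705, with 2705 from clone b alone (without clone a) and 1892 from clone a alone. The share called for MED1 in both 2 h libraries was 84.6% with a MED24 score of at least 50 at 2 h, 75.7% with the 30000 best peaks, and 71.7 to 89.6% with libraries left out. Where a 2 h MED1 library or a whole clone was left out, the share is that called in the 1 remaining 2 h MED1 library. The share in or within 1 kb of a gene was 83.0% and 92.2% with scores of at least 50 and 100, 85.4% and 90.7% with the 30000 and 10000 best peaks, 70.2% with the replicate block, 84.3% with a window of 5 kb, and 69.6 to 78.0% with libraries left out. The share within 1 kb of a start was 61.7% and 76.7% with scores of at least 50 and 100, 70.1% and 84.3% with the 30000 and 10000 best peaks, 37.5% with the replicate block, and 36.1 to 52.5% with libraries left out. The share near a start and ranking among regions common to the MED1 lists were added after seeing the data. The MED1 shift kept its sign in all 22 alternatives run, from 9.06 to 19.9 points, as did its excess over regions never called for MED24 (15.3 to 26.7) and over those with MED24 throughout (11.8 to 22.7). The causes of these differences were not tested, and depth is unknown.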
